A study of Mus musculus with 10 samples.

Results

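Adult hippocampal neurogenesis was followed here through 9 genes, Hes5, Eomes, Neurod1, Sox4, Sox11, Dcx, Igfbpl1, Draxin and Calb2, which are used as markers of successive steps from neural stem cell to young granule neuron. They were chosen by name, as 9 of the 24391 gene names in the count files, and all 9 passed the filter on low counts. RNA of the bilateral whole hippocampus was sequenced from 10 male mice, 1 library per mouse, 4 days after surgery. The mice were 10 to 14 weeks old, came from Jackson Labs, and their strain is spelled C56BL/6J in the study. The surgery was done under isoflurane anesthesia. In 4 SAH mice (1 to 4) subarachnoid hemorrhage was made by pushing a filament through a vessel of the circle of Willis on one side, and the study kept only SAH mice whose cerebral blood flow fell sharply at the perforation. The 3 Sham mice (5 to 7) went through the same filament surgery with the vessel wall kept intact, and 3 Naive mice (8 to 10) had no surgery. Sham and Naive mice together are called control mice (n = 6).

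In the adult mouse, new neurons are made in the subgranular zone of the dentate gyrus, the inner edge of the granule cell layer. Radial glia-like stem cells kept by Notch signaling give rise to dividing intermediate progenitors, these become neuroblasts that carry the microtubule protein doublecortin, and the young neurons that leave the cell cycle pass through a calretinin stage before they become granule neurons. Such cells are a small share of the hippocampus, and most of these genes are also used by other cells there. In RNA of a whole tissue, fewer cells of a type and less RNA per cell cannot be told apart.

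Libraries held 19743388 to 27254655 assigned counts, and 14993 genes were tested in SAH against control mice. Levels are given as counts per 1000000 counts of the library (CPM) after scaling by the trimmed mean of M values (TMM). Genes that mark the hippocampus were present in every mouse: the 6 listed (Wfs1, Spink8, Zbtb20, Man1a, Fibcd1 and Iyd) summed to 435.8 to 485.1 CPM in SAH mice and to 448.1 to 515.4 CPM in control mice. Markers of the choroid plexus, the tissue that makes cerebrospinal fluid and lies beside the hippocampus, stood apart in 3 libraries. Their summed level was 1234 CPM in SAH mouse 3, 870.8 CPM in SAH mouse 4 and 835.5 CPM in Sham mouse 7, and 47.5 to 219.0 CPM in the other 7 mice. For SAH against control, the value of each of the 9 genes is therefore also given without these 3 libraries, which leaves 2 SAH and 5 control mice. The other comparisons and lists are given with all 10 mice alone. Each library is 1 mouse, so the p-values measure the spread between mice.

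All 9 genes had a lower fitted level in SAH than in control mice, and 3 of them, Sox11, Dcx and Draxin, passed the test. The test was edgeR's quasi-likelihood test with Benjamini-Hochberg adjustment over all genes and a threshold of 0.10 on the adjusted p. No member was called higher. Of all tested genes, 4.68% were called, 1.54% lower and 3.13% higher. The median log2 fold change of the 9 genes was -0.40, beside a median of -0.0024 over all tested genes, of which 50.9% were negative. At an unadjusted p under 0.05, 5 of the 9 genes were lower, and 7.87% of all tested genes. Without the 3 libraries high in choroid plexus markers, 1 of the 9 genes (Sox11) was called lower, beside 0.483% of all genes tested in that fit. DESeq2 on all 10 mice called 4 of the 9 lower (the same 3 and Igfbpl1), beside 2.46% of the genes it tested.

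**Figure D1:**
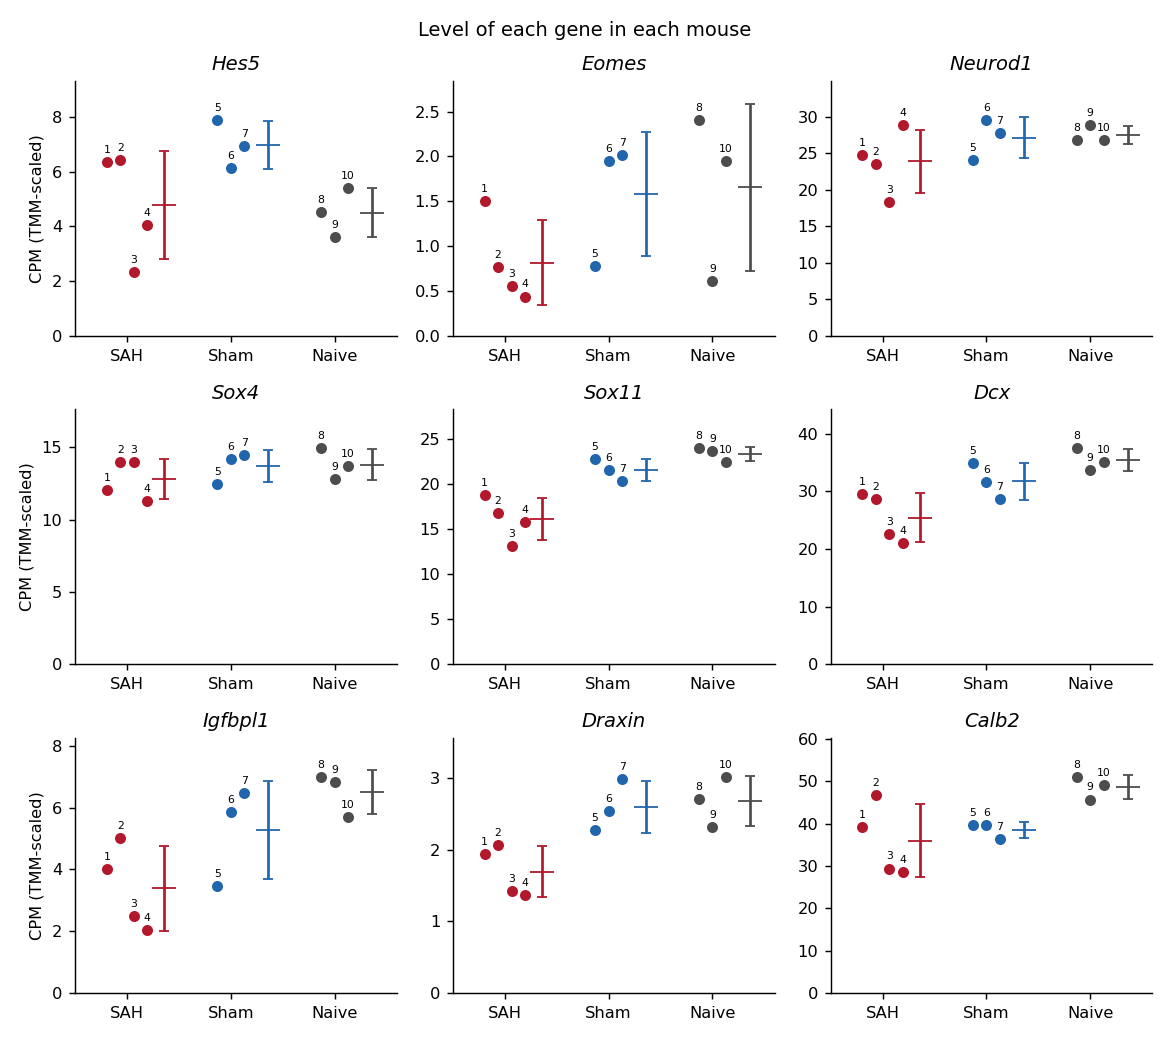
Level of each of the 9 genes (CPM, TMM-scaled, vertical axes from 0) in each mouse, numbered as in the labels, with the mean and SD of each group beside its points. All 4 SAH mice lie below all 6 control mice for Sox11 and Draxin, as for 2.37% of all tested genes, and the groups overlap for the other members.

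Per length of exon, the order of the levels in control mice ran from Calb2 at 30.5 ± 4.12 CPM per kilobase (SD, n = 6) through Neurod1 at 11.0 ± 0.779, Sox4 at 4.66 ± 0.327, Hes5 at 4.51 ± 1.23, Dcx at 3.67 ± 0.337, Sox11 at 2.65 ± 0.159, Igfbpl1 at 2.16 ± 0.474 and Draxin at 0.507 ± 0.0615 to Eomes at 0.436 ± 0.198. Neighbors that differed by less than the sum of their SDs were Sox4 and Hes5, Hes5 and Dcx, Sox11 and Igfbpl1, and Draxin and Eomes. In SAH mice the 2 highest were again Calb2 at 25.2 ± 6.08 and Neurod1 at 9.59 ± 1.74 CPM per kilobase (n = 4), and Eomes at 0.220 ± 0.128 was again the lowest.

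Hes5 (mm9 chr4:154335032-154336480, plus strand) is a Notch target that holds neural stem cells undifferentiated, and it is also used by astrocytes. Its level was 6.33, 6.44, 2.32 and 4.04 CPM in SAH mice 1 to 4, 7.88, 6.14 and 6.92 CPM in Sham mice 5 to 7, and 4.51, 3.60 and 5.39 CPM in Naive mice 8 to 10. SAH mice 1 and 2 lay within the Sham range and SAH mouse 3 was the lowest of all 10. The log2 fold change in SAH against control mice was -0.26 ± 0.26 (SE; edgeR adjusted p = 0.643), and without the 3 libraries high in choroid plexus markers it was 0.21 (edgeR adjusted p = 0.806). With 1 mouse left out it ran from -0.44 without SAH mouse 2 to -0.043 without SAH mouse 3. Hes5 differed in direction between the control groups: it was -0.53 against Sham and 0.091 against Naive mice, and neither was called.

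Eomes (mm9 chr9:118387307-118395250, plus strand), also known as Tbr2, marks intermediate progenitors, and its protein is also found in Cajal-Retzius cells at the hippocampal surface. It had only 11 to 64 counts per library. Its level was 1.499, 0.772, 0.556 and 0.440 CPM in SAH mice 1 to 4, 0.784, 1.95 and 2.01 CPM in Sham mice 5 to 7, and 2.41, 0.617 and 1.95 CPM in Naive mice 8 to 10. The 4 highest mice were controls, while Sham mouse 5 and Naive mouse 9 were as low as the SAH mice. The log2 fold change of -1.02 ± 0.41 was the largest of the 9 genes and was not called (edgeR adjusted p = 0.220). With its 95% interval from -1.90 to -0.15, the size of the difference is poorly fixed at this depth. Without the 3 libraries the value was -0.52 (edgeR adjusted p = 0.762). With 1 mouse left out it ran from -1.46 to -0.81, and it was called without SAH mouse 1.

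Neurod1 (mm9 chr2:79292798-79296793, minus strand) encodes a basic helix-loop-helix factor of late progenitors and neuroblasts that mature granule neurons keep. It was at 24.8, 23.5, 18.4 and 28.9 CPM in SAH mice 1 to 4, at 24.1, 29.6 and 27.8 CPM in Sham mice, and at 26.9, 28.9 and 26.8 CPM in Naive mice. SAH mouse 4 was among the highest 3 mice and SAH mouse 3 the lowest, so the groups overlapped. The log2 fold change was -0.19 ± 0.10 (SE; edgeR adjusted p = 0.358), and -0.17 without the 3 libraries (edgeR adjusted p = 0.479). With 1 mouse left out it ran from -0.29 without SAH mouse 4 to -0.084 without SAH mouse 3.

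Sox4 and Sox11 encode related SoxC transcription factors that switch on neuronal genes in neuroblasts, and only one of them was called. Sox11 (mm9 chr12:28019133-28027583, minus strand; its exon length of 8451 bases equals its span) was at 18.8, 16.8, 13.1 and 15.7 CPM in SAH mice 1 to 4. It was at 22.8, 21.5 and 20.3 CPM in Sham mice 5 to 7 and at 23.9, 23.6 and 22.4 CPM in Naive mice 8 to 10. Every SAH mouse was thus below every control mouse, as were 2.37% of all tested genes. The mean was 16.1 ± 2.34 CPM (SD, n = 4) against 22.4 ± 1.34 CPM (n = 6), a fall to 71.9% of control (log2 fold change -0.48 ± 0.086 SE; edgeR adjusted p = 0.00961). By unadjusted p, Sox11 ranked 124 among the 14993 genes. It was called in all 10 fits that left out 1 mouse, with log2 fold changes from -0.55 to -0.39, and at -0.36 (edgeR adjusted p = 0.0170) without the 3 libraries high in choroid plexus markers.

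Sox4 (mm9 chr13:29042599-29045551, minus strand) was at 12.04, 13.98, 13.995 and 11.3 CPM in SAH mice 1 to 4, at 12.5, 14.2 and 14.5 CPM in Sham mice, and at 14.9, 12.8 and 13.7 CPM in Naive mice. SAH mice 1 and 4 were the lowest of all, and SAH mice 2 and 3 lay within the control range. Its log2 fold change was -0.10 ± 0.082, with a 95% interval from -0.28 to 0.072 (edgeR adjusted p = 0.548). The interval reaches almost to the upper side of that of Sox11, which ran from -0.66 to -0.29, and the difference between these genes was not tested. Without the 3 libraries Sox4 was at -0.060 (edgeR adjusted p = 0.884), and with 1 mouse left out it ran from -0.15 without SAH mouse 2 to -0.046 without SAH mouse 4.

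Dcx (mm9 chrX:140290385-140367762, minus strand) encodes doublecortin, the microtubule-binding protein by which neuroblasts and young neurons are usually stained. It was at 29.5, 28.6, 22.6 and 21.1 CPM in SAH mice 1 to 4. In controls it was at 35.0, 31.7 and 28.6 CPM in Sham mice 5 to 7 and at 37.5, 33.8 and 35.1 CPM in Naive mice 8 to 10. The groups met at one mouse: Sham mouse 7, a library high in choroid plexus markers, was level with SAH mouse 2 and below SAH mouse 1, and the other 5 control mice were above all SAH mice. Dcx was at 25.5 ± 4.24 CPM (SD, n = 4) in SAH and 33.6 ± 3.09 CPM (n = 6) in control mice, a fall to 75.8% (log2 fold change -0.40 ± 0.10 SE; edgeR adjusted p = 0.0521). Dcx stayed called in 5 of the 10 fits that left out 1 mouse. It was not called without SAH mouse 3, SAH mouse 4 or any of the 3 Naive mice, and the values ran from -0.48 to -0.32. Without the 3 libraries the log2 fold change was -0.25 (edgeR adjusted p = 0.1003).

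Igfbpl1 (mm9 chr4:45822379-45839699, minus strand) encodes a secreted protein related to the insulin-like growth factor binding proteins and is used as a marker of neuroblasts. Its level was 4.01, 5.00, 2.48 and 2.04 CPM in SAH mice 1 to 4, 3.47, 5.85 and 6.48 CPM in Sham mice 5 to 7, and 7.00, 6.84 and 5.69 CPM in Naive mice 8 to 10. Sham mouse 5 was below SAH mice 1 and 2, and the other 5 control mice were above all SAH mice. Its mean was 57.9% of control by the fit (log2 fold change -0.79 ± 0.24 SE), and its edgeR adjusted p of 0.112 was just outside the threshold. Igfbpl1 was called when SAH mouse 2 or Sham mouse 5 was left out, by DESeq2 (adjusted p = 0.0310) and, at the very edge of the threshold, by edgeR without a filter on low counts (adjusted p = 0.099998). Without the 3 libraries high in choroid plexus markers it was at -0.34 (edgeR adjusted p = 0.646).

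Draxin (mm9 chr4:147472546-147504807, minus strand) encodes a secreted guidance protein that repels axons and binds the netrin receptor Dcc. It was scarce, with 28 to 74 counts per library. Its level was 1.93, 2.06, 1.41 and 1.36 CPM in SAH mice 1 to 4, 2.27, 2.54 and 2.98 CPM in Sham mice 5 to 7, and 2.71, 2.31 and 3.01 CPM in Naive mice 8 to 10. All 4 SAH mice were below all 6 control mice, as held for 2.37% of all tested genes, and the gap between SAH mouse 2 and Sham mouse 5 was narrow. Draxin fell to 64.4% of control (log2 fold change -0.64 ± 0.16 SE; edgeR adjusted p = 0.0580). The call held in 5 of the 10 fits without 1 mouse and was lost without SAH mouse 3, SAH mouse 4, Naive mouse 8, Naive mouse 10 or Sham mouse 7. Without the 3 libraries the value was -0.36 (edgeR adjusted p = 0.537).

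Calb2 (mm9 chr8:112666438-112692106, minus strand) encodes calretinin, which is carried for a time by young granule neurons and lastingly by mossy cells and some interneurons. It was at 39.2, 46.9, 29.4 and 28.5 CPM in SAH mice 1 to 4, at 39.7, 39.6 and 36.4 CPM in Sham mice 5 to 7, and at 51.1, 45.7 and 49.2 CPM in Naive mice 8 to 10. SAH mouse 1 lay within the Sham range and SAH mouse 2 above it, and SAH mice 3 and 4 were the lowest of all. The log2 fold change in SAH against control was -0.27 ± 0.14 (SE; edgeR adjusted p = 0.331), and -0.058 without the 3 libraries. Calb2 was called only when SAH mouse 2 was left out, among the 10 fits without 1 mouse, in which it ran from -0.43 to -0.17.

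**Figure D2:**
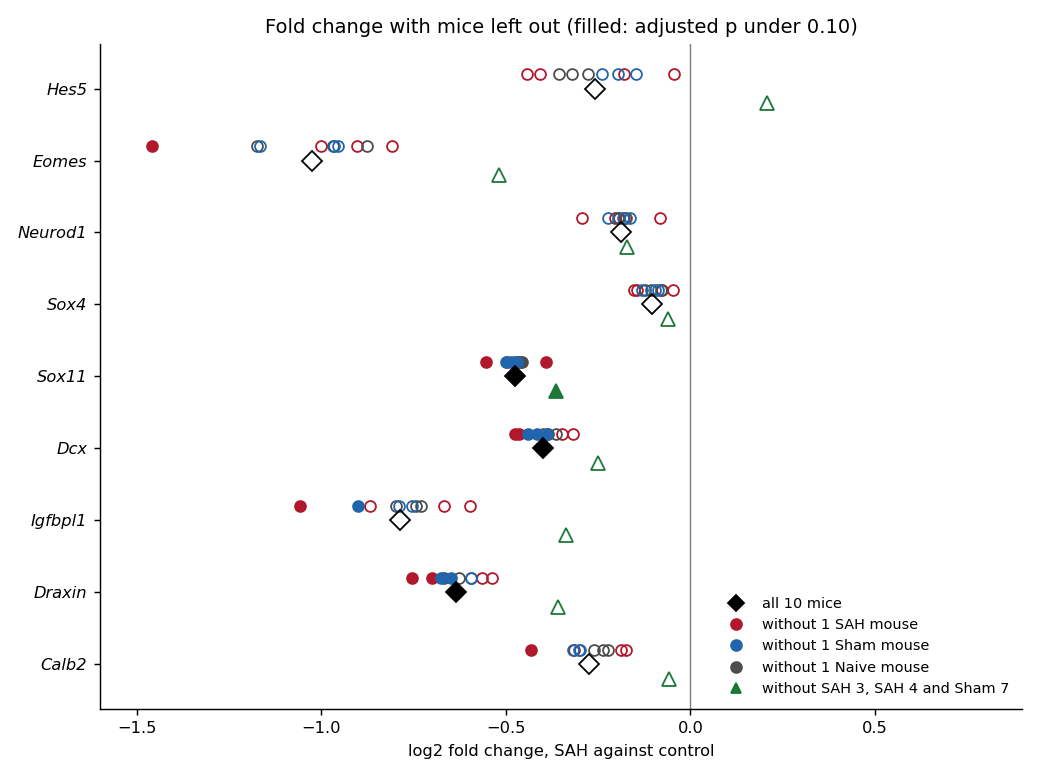
Log2 fold change in SAH against control mice (horizontal axis) of each gene with all 10 mice (diamonds), with each mouse left out in turn (circles, colored by the group of that mouse) and without SAH mice 3 and 4 and Sham mouse 7 (triangles). Filled symbols have an adjusted p under 0.10, and only Sox11 has no open symbol.

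The promoters of the 3 genes called lower are shown, from the RefSeq table on GRCm38.p6. Each runs from 250 bases before to 50 bases after the start of transcription, read along the gene. That table held windows for 7 of the 9 genes and not for Igfbpl1 and Calb2. Capitals mark every match, on either strand, to 6 short motifs: the E-boxes CAGCTG and CAGATG that basic helix-loop-helix factors bind, the RBPJ core TGGGAA of Notch targets, the N-box CACNAG bound by Hes factors, and the SOX motifs ACAATG and ACAAAG. The Dcx window is the more upstream of 2 overlapping ones.
Sox11, chr12:27342669-27342968, minus strand: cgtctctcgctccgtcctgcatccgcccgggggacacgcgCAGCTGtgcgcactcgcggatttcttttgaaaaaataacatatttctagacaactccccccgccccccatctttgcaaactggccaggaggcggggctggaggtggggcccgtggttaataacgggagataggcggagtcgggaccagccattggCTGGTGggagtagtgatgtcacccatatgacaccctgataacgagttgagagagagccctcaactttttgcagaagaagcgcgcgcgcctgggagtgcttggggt
Dcx, chrX:143933170-143933469, minus strand: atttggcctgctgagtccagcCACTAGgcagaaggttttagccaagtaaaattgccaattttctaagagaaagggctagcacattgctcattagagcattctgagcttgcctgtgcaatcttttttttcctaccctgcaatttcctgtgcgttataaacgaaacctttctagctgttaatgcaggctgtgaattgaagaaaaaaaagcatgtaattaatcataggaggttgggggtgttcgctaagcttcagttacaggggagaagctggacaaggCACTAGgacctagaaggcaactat
Draxin, chr4:148130649-148130948, minus strand: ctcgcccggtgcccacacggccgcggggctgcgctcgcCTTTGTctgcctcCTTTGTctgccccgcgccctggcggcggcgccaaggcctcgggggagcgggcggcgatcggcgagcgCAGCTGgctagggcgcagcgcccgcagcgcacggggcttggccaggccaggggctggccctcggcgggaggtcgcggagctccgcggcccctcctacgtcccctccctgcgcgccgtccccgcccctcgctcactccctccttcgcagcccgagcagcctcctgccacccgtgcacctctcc

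The Sox11 window held 1 CAGCTG, 210 bases before the start, and 1 CACNAG on the other strand. The Draxin window, with 78.0% G and C, also held 1 CAGCTG, 132 bases before the start, and 2 ACAAAG on the other strand. The Dcx window, at 43.0% G and C, held 2 CACNAG and none of the other motifs, and the second Dcx window, which is not printed, held 1 CACNAG and 1 ACAAAG. No motif was shared by the 3 printed windows. Among the other members, the Hes5 window held 2 TGGGAA, 2 ACAATG and 1 ACAAAG, and the Sox4 window, of the related gene that was not called, held 1 CAGCTG, 1 TGGGAA and 1 CACNAG. Eomes held 2 CACNAG and Neurod1 held 1. Over all 32851 windows of the table, CACNAG was found in 42.5%, TGGGAA in 25.6%, ACAAAG in 18.7%, CAGATG in 17.2%, CAGCTG in 16.3% and ACAATG in 12.6%. These matches are letters in a window and were not tested for binding.

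The fit of the 3 groups kept the control groups apart. Against Sham mice, which had the same surgery without the puncture, no member was called and all 9 were negative, with 4 at an unadjusted p under 0.05 (Sox11, Draxin, Dcx and Igfbpl1). Of all genes in that fit 0.192% were called lower, and 3.83% were lower at an unadjusted p under 0.05. Sox11 came nearest (log2 fold change -0.42 ± 0.10 SE; edgeR adjusted p = 0.113), and DESeq2, which called 0.47% of its genes lower, called it (adjusted p = 0.0172). All 4 SAH mice were below all 3 Sham mice for Sox11 and Draxin, as they were for 4.45% of all genes in the fit, and Draxin was at -0.61 ± 0.20. Against Naive mice, Sox11 (-0.53 ± 0.10, edgeR adjusted p = 0.0198) and Dcx (-0.48 ± 0.11, edgeR adjusted p = 0.0599) were called lower, beside 0.965% of all genes. With only SAH and Naive mice in the fit, Dcx was not called (edgeR adjusted p = 0.109). With 1 mouse left out, Sox11 stayed called against Naive mice in 9 of 10 fits and Dcx in 6. All 4 SAH mice were below all 3 Naive mice for Sox11, Dcx, Draxin and Igfbpl1, as they were for 6.75% of all genes in the fit. DESeq2 called 4 members lower against Naive mice (Sox11, Dcx, Igfbpl1 and Calb2), beside 1.69% of its genes. These comparisons share the SAH mice.

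Sham against Naive mice asks what the surgery without a puncture did. No member was called by edgeR or by DESeq2, and edgeR called 0.00661% of all genes. Hes5 and Calb2 had unadjusted p-values under 0.05, as had 2.02% of all genes, with an edgeR adjusted p of 0.9998 each. Hes5 was at 6.98 ± 0.873 CPM (SD, n = 3) in Sham and 4.50 ± 0.896 CPM (n = 3) in Naive mice, with all Sham mice above all Naive mice. Calb2 was at 38.6 ± 1.86 CPM in Sham and 48.7 ± 2.72 CPM in Naive mice, with all Sham mice below all Naive mice. The Sham and Naive mice were separated in this way, in either direction, for 8.99% of all genes. The SAH mean of Calb2, 36.0 ± 8.71 CPM (n = 4), was near that of the Sham mice, and the SAH mean of Hes5, 4.78 ± 1.98 CPM, was near that of the Naive mice. Both SAH means average unlike mice, as SAH mice 3 and 4 were lower than SAH mice 1 and 2 for both genes. The log2 difference between Sham and Naive mice was -0.30 ± 0.29 (SE) for Igfbpl1, -0.16 ± 0.12 for Dcx and -0.11 ± 0.11 for Sox11. For Dcx and for Sox11, 2 of the 3 Sham mice were below every Naive mouse. For Sox4, Neurod1, Draxin and Eomes it lay between -0.097 and -0.013.

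**Figure D3:**
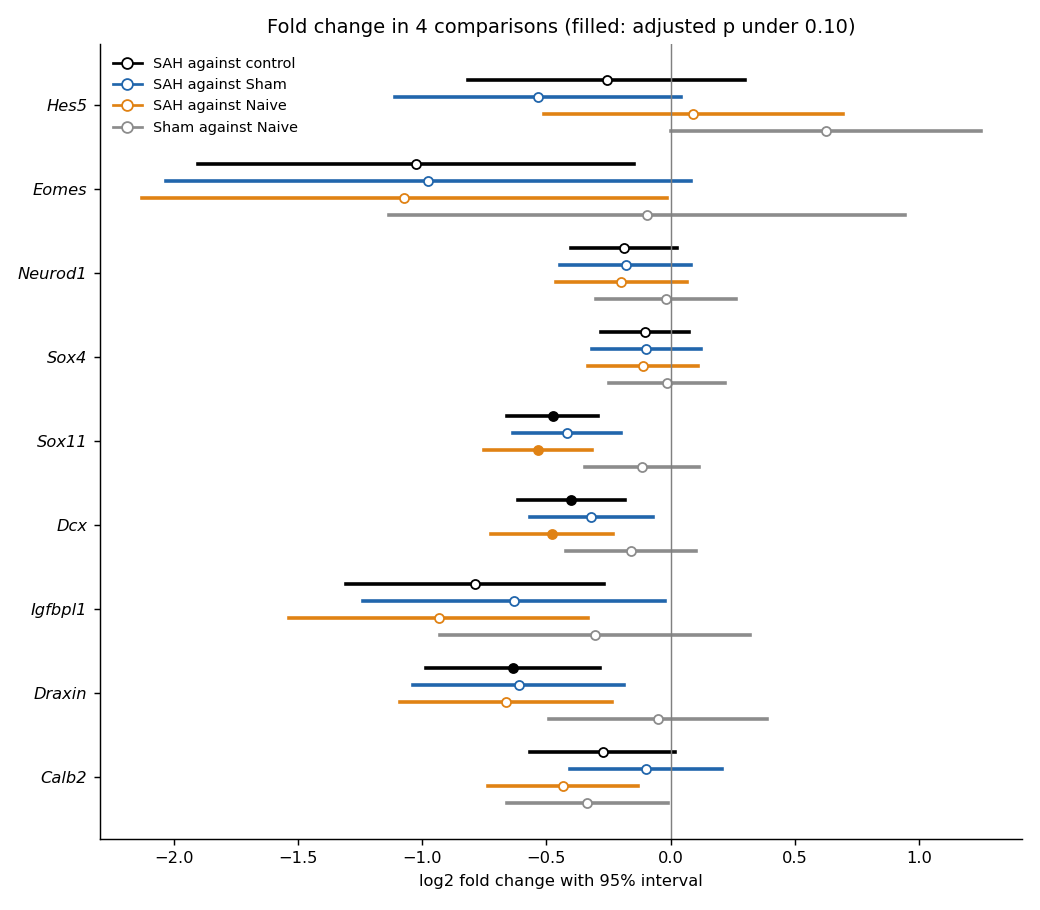
Log2 fold change (horizontal axis) with its 95% interval for each gene in SAH against control, SAH against Sham, SAH against Naive and Sham against Naive mice, with filled points where the adjusted p was under 0.10. Filled points are Sox11, Dcx and Draxin against control and Sox11 and Dcx against Naive mice, and Sham against Naive has none.

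SAH mice differed among themselves. SAH mouse 4 was the lowest of all 10 mice for 6 of the 9 genes and SAH mouse 3 for the other 3. SAH mouse 3 was below every control mouse for 8 genes and SAH mouse 4 for 7, while SAH mice 1 and 2 were below every control mouse for 3 genes each. For SAH mouse 1 these were Sox11, Draxin and Sox4, and for SAH mouse 2 Sox11, Draxin and Neurod1. For how many of all tested genes a single SAH mouse was lowest, or below every control mouse, was not counted. These counts therefore do not set the 9 genes apart from other genes. Draxin stood at 54% and 52% of the control mean in SAH mice 3 and 4 and at 73% and 78% in SAH mice 1 and 2. Igfbpl1 stood at 42% and 35% in SAH mice 3 and 4 and at 68% and 85% in the other SAH mice. SAH mice 3 and 4 are also the SAH libraries with the highest choroid plexus markers. Sham mouse 7, with a similar level of those markers, was the lowest control for Sox11, Dcx and Calb2 and above the control mean for Hes5, Eomes, Neurod1, Sox4, Igfbpl1 and Draxin. The part of choroid plexus RNA in the result was not tested.

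**Figure D4:**
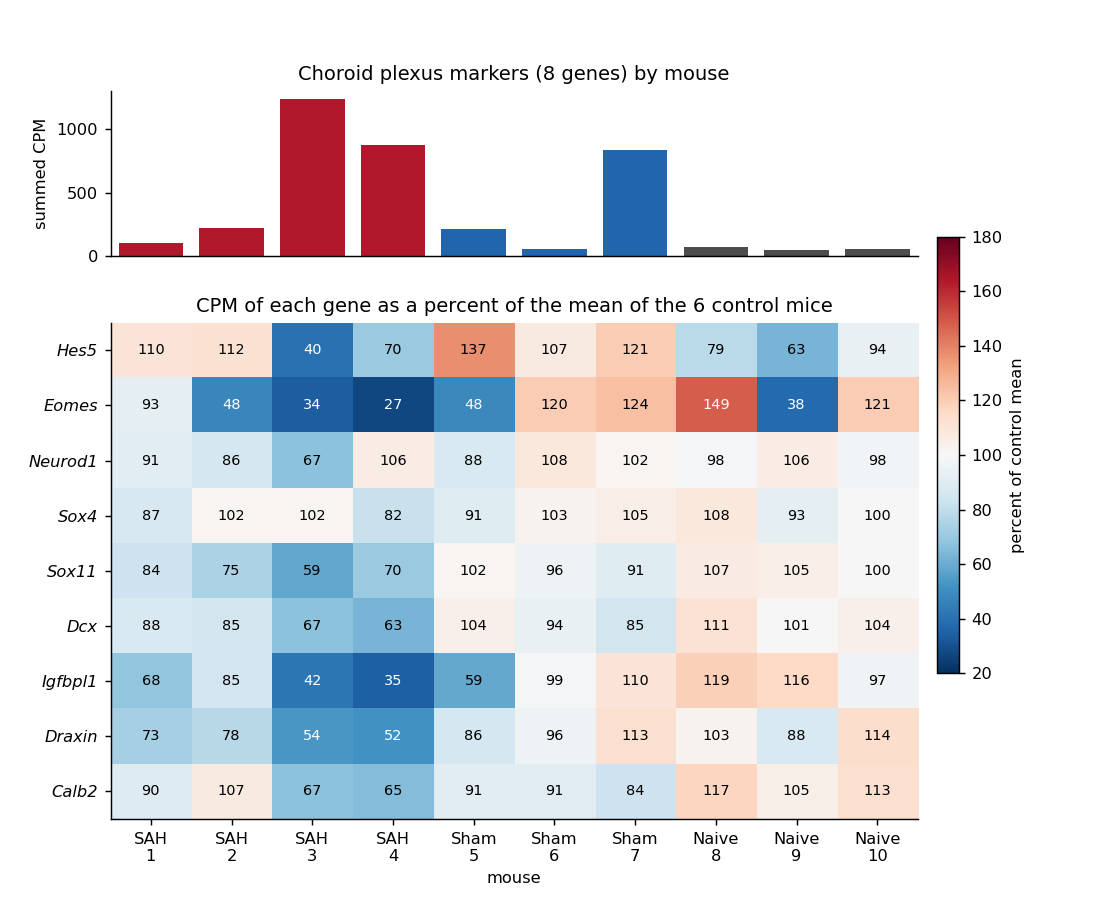
Upper panel, summed CPM of 8 choroid plexus markers in each mouse. Lower panel, CPM of each gene in each mouse as a percent of the mean of the 6 control mice (blue below 100, red above). The lowest value of each gene is in either SAH mouse 3 or SAH mouse 4.

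Across the 10 mice the 9 genes varied together to unequal extent. Of the 36 pairs, 20 had a Pearson r of log2 CPM above 0.5 and 7 above 0.8, with a median of 0.569. The pairs share libraries and their scaling, so r is given as a description with no p. The highest were Dcx with Sox11 at 0.917, Igfbpl1 with Draxin at 0.893 and Dcx with Calb2 at 0.887. After the mean of each of the 3 groups was taken off, the median was 0.453, Dcx with Sox11 was at 0.749, Igfbpl1 with Draxin at 0.799 and Dcx with Calb2 at 0.881. Sox4 and Sox11, the related factors, were at 0.196 before and at -0.42 after the group means were taken off.

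The 3 genes most like each member over the 10 mice, by the same measure among 14992 other genes, were mostly not genes of neurogenesis. For Dcx they were Srcin1 (r = 0.970), Fabp7 (0.966) and Grip2 (0.963), of which Fabp7, brain lipid binding protein, marks radial glia-like stem cells. For Sox11 they were Smarcc2 (0.969), Fam57b (0.965) and Arc (0.965), the last an immediate early gene of active neurons that fell by 1.13 on the log2 scale (edgeR adjusted p = 0.0145). For Draxin they were Efhd1, Mog and Opalin, each at 0.970. Mog and Opalin are myelin genes of oligodendrocytes, and both fell, Mog by 0.73 on the log2 scale (edgeR adjusted p = 0.00375) and Opalin by 0.56 (edgeR adjusted p = 0.0496). For Igfbpl1 they were Fzr1 (0.973), Dlg4 (0.965) and Rnls (0.960), for Calb2 Ncapg2 (0.961), Ube2d2a (0.942) and Slc6a11 (0.931), and for Hes5 Vti1b (0.961), Zfp575 (0.940) and Hadha (0.927). For Neurod1 they were Ryk (0.951), Acbd3 (0.950) and Nipal4 (0.934), for Eomes Kcnj11 (0.911), 5730408K05Rik (0.907) and Qpct (0.892), and for Sox4 Gm996 (0.958), Tarbp2 (0.918) and Ccdc74a (0.909). With 10 mice and so many genes searched, values of this size are the top of a long list.

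Other genes of the same steps were listed with earlier results of these data known: 81 genes in 7 lists, of which 79 were tested, 3 were called higher and 4 lower. Of all tested genes, 3.13% were called higher and 1.54% lower. Among 12 stem cell genes, Gfap (log2 fold change 1.00; edgeR adjusted p = 0.00535) and Vim (1.22; edgeR adjusted p = 0.00272), intermediate filaments of stem cells and of astrocytes, rose. In the same list Lpar1 (-0.55; edgeR adjusted p = 0.0195), a lysophosphatidic acid receptor also used by oligodendrocytes, and Fabp7 (-0.59; edgeR adjusted p = 0.0687) fell. The others ran from Nr2e1 at -0.20 to Nes at 0.17, and the median of the list was -0.017.

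Of the step that Eomes marks, Neurog2 was at -0.45 (edgeR adjusted p = 0.189) and Insm1 at -0.44 (edgeR adjusted p = 0.179), neither of them called, and Tfap2c did not pass the filter. None of 12 genes of cell division was called, from Ccnb1 at -0.41 to Cdk1 at 0.43, with a median of 0.12. Of the 19 tested genes of immature neurons, 17 were negative, beside 50.9% of all tested genes. Of the 19, 1 was called, and the median was -0.14. The called one was Marcksl1 (-0.39, edgeR adjusted p = 0.0512), a regulator of actin in growing neurites. It was at 90.3 ± 17.7 CPM (SD, n = 4) in SAH and 118.1 CPM in control mice. The groups did not overlap, but the highest SAH mouse, at 109.6 CPM, nearly met the lowest control mouse, at 110.0 CPM. Of all tested genes, 2.37% were separated in this direction. The rest of the immature neuron list ran from Cd24a at -0.37 (edgeR adjusted p = 0.110) to Neurod2 at 0.17, and Gal did not pass the filter.

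Downstream of the young neuron, 1 of 9 genes of granule neurons was called. C1ql2, a synaptic protein of mossy fibers, rose by 0.34 (edgeR adjusted p = 0.0727), the others ran from Tdo2 at -0.29 to Plk5 at 0.38, and the median was 0.090. None of 17 genes of the Notch pathway around Hes5 was called, from the ligand Dll1 at -0.25 to the ligand Dll4 at 0.28, with a median of 0.081. Of 7 partners of Draxin, the netrin receptor Unc5b fell by 0.40 (edgeR adjusted p = 0.0272), and the other 6 ran from Dcc at -0.036 to Ntn1 at 0.14.

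**Figure D5:**
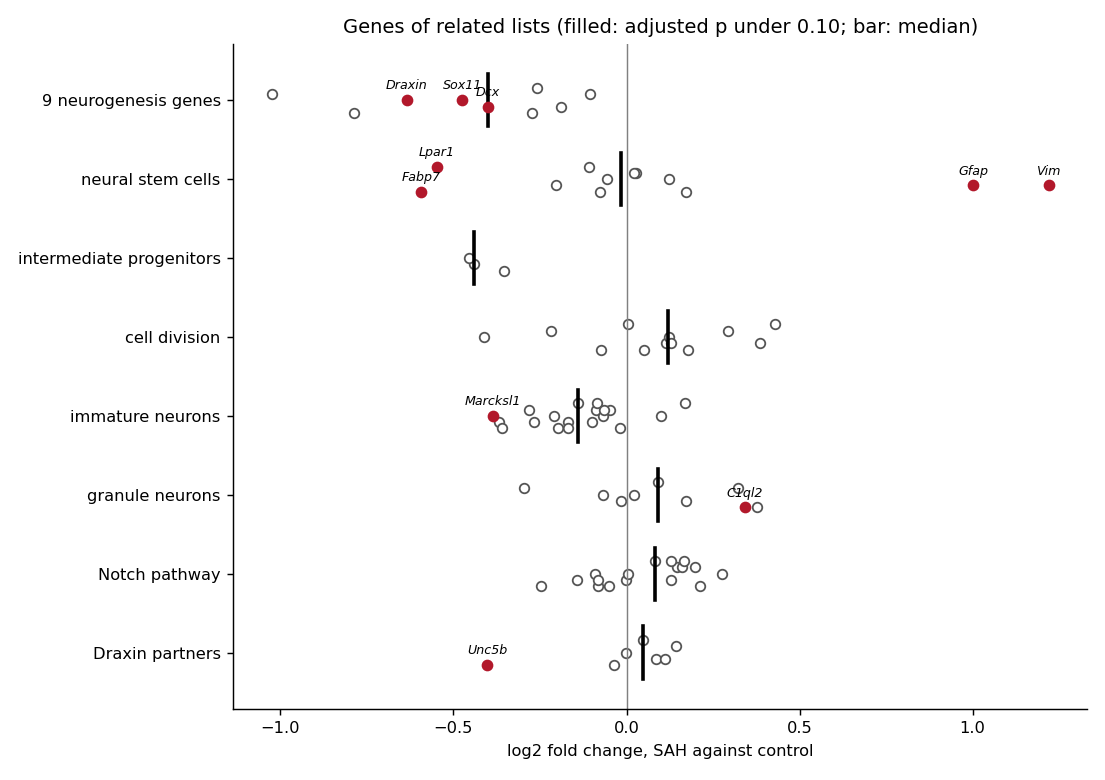
Log2 fold change in SAH against control mice (horizontal axis) of the tested genes of each list, with called genes filled and named and the median of each list as a bar. The 9 genes have their median at -0.40, immature neurons at -0.14 and progenitors at -0.44, while the medians of the other lists lie between -0.017 and 0.12.

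Markers of other cell types that share these genes moved as follows, and their part in the results was not tested. Dcx and Sox11 are also used by neuroblasts of the subventricular zone, beside the striatum. The list for these held markers of subventricular and GABAergic neuroblasts and of the striatum. All 9 tested were negative, with a median of -0.36, and Dlx2 was called lower (-0.40, edgeR adjusted p = 0.0882). The striatal markers Drd1 (-0.10), Adora2a (-0.20) and Gpr6 (-0.36) were not called. The summed level of the list, 38.2 to 45.5 CPM in SAH mice, lay below the 45.6 to 51.1 CPM in control mice. Calb2 and Eomes are also used by mossy cells, interneurons or Cajal-Retzius cells. None of 4 mossy cell markers and none of the 4 tested Cajal-Retzius markers was called (medians 0.0010 and -0.027), and of 8 interneuron markers 1 was, Sst, which fell by 0.27 (edgeR adjusted p = 0.0333). None of 6 markers of oligodendrocyte precursors was called (median -0.20), nor of 6 of astrocytes (0.13), 7 of the thalamus (-0.097), 5 of ependyma (-0.055), 6 of the hippocampus (0.019) or 8 of the choroid plexus (1.16). Pecam1 and Flt1 among 5 endothelial markers rose (median of the list 0.44), as did Csf1r of the microglia list (median of the list 0.084). In SAH against Naive mice, the choroid plexus markers Kcnj13 (3.64, edgeR adjusted p = 0.0363) and Ttr (4.30, edgeR adjusted p = 0.0874) were called higher. The other choroid plexus markers listed were not called there.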

How the data were processed

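Total RNA of the bilateral hippocampus of 10 mice was sequenced after ribosomal RNA depletion, as strand-specific paired reads. The authors aligned reads to mm9 with STAR (version not given in the sources used here), merged lanes and counted read pairs per gene name with featureCounts 1.6.2 on the reverse strand, leaving out multi-mapped and ambiguous reads. The deposited values are raw counts per gene, with the exon length of each gene beside them. No gene's exons overlapped those of the 9 genes in these files.

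From the counts, genes were kept by filterByExpr (minimum count 10, minimum total count 15), scaled by TMM and tested with edgeR 4.0.16 (R 4.3.3, limma 3.58.1) by the quasi-likelihood test, with Benjamini-Hochberg adjustment over all tested genes and a threshold of 0.10. The main comparison set SAH mice (n = 4) against a control of Sham plus Naive mice (n = 6), and the 3 groups were compared pairwise in 1 fit of 3 groups over 15134 genes. Alternatives were DESeq2 1.42.0, other scalings and filters, single control groups, and each mouse left out. The scripts were tested on simulated data. For likeness, Pearson's r of log2 CPM (prior count 2) was taken over the 10 mice, and the 3 highest genes per member are named. Named genes of the other lists are those past the threshold and, of the rest, the highest and lowest. Results of 2 listed genes are not reported here. No 2 libraries agreed within sampling noise. The members and gene lists were chosen with earlier results of these data known. Leaving out the 3 libraries with choroid plexus markers above 3 times the median was chosen after seeing the data. Only counting error is covered by depth: 19743388 to 27254655 counts per mouse, with which Eomes at 11 to 64 counts is the least precise.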

Additional observations from a re-analysis of the deposited data

Results flagged for a closer look

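Igfbpl1 in Sham mouse 5, at 3.47 CPM, stood apart from the other 5 control mice, which were at 5.69 to 7.00 CPM. Its gap to the nearest control mouse was 0.629 of the whole range of the control mice, just above Dixon's 95% critical value for 6 samples. It was the only such mouse among 18 groups tested (9 genes in SAH and in control mice), and chance flags about 1 in 20 groups. Without this mouse Igfbpl1 was called lower in SAH mice (log2 fold change -0.90; edgeR adjusted p = 0.0593).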

How the results depend on the processing

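No paired analysis was possible because no animal number occurs in more than 1 group. In SAH against control mice, the direction of 8 of the 9 genes was negative under all 20 alternatives, and Hes5 was positive at 0.093 with Naive mice alone as control and at 0.21 without the 3 libraries high in choroid plexus markers. Members called lower numbered 3 in all 10 mice. They numbered 1 at an adjusted p under 0.05, 0 with Sham mice alone, 1 with Naive mice alone, 1 without the 3 libraries, and 1 to 5 with 1 mouse left out. Fewer mice enter all of these fits but the first. Against Naive mice, 2 members were called, 4 by DESeq2, 1 with only these mice in the fit and 0 to 5 with 1 mouse left out. Against Sham mice, 0 members were called, 1 by DESeq2, 1 with no filter and 0 to 1 with 1 mouse left out. With 1 mouse left out, Hes5 against Naive mice ran from -0.094 to 0.31 and Calb2 against Sham mice from -0.25 to 0.0018, and Sham against Naive values from -0.063 to 0.052 for Sox4, -0.46 to 0.27 for Eomes, -0.084 to 0.062 for Neurod1 and -0.16 to 0.041 for Draxin. None of these was called.

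Over all genes in SAH against control, 470 were called higher and 231 lower. At an adjusted p under 0.05 there were 277 higher and 92 lower, by DESeq2 397 lower, with Sham mice alone 12 higher and 0 lower, with Naive mice alone 201 higher and 81 lower, and with 1 mouse left out 223 to 686 higher and 85 to 407 lower. Against Sham mice, 80 were called higher and 29 lower, by DESeq2 226 higher and 74 lower, with no filter 134 higher and 48 lower, with only these mice 12 higher and 0 lower, and with 1 mouse left out 6 to 166 higher and 0 to 55 lower. Against Naive mice, 307 were called higher and 146 lower, by DESeq2 463 higher and 272 lower, with only these mice 201 higher and 81 lower, and with 1 mouse left out 87 to 443 higher and 22 to 240 lower. In Sham against Naive mice, 1 was called higher, 2 by DESeq2, with only these mice 2 higher and 1 lower, and 0 to 1 higher and 0 lower with 1 mouse left out. Of the related lists, 3 genes were called higher and 4 lower. With Sham mice alone these were 0 and 0, the lower ones were 2 at an adjusted p under 0.05, 8 by DESeq2 and 1 with Naive mice alone, and with 1 mouse left out they were 2 to 4 higher and 2 to 8 lower.

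DESeq2 also called Igfbpl1 lower in SAH against control (adjusted p = 0.0310). Otherwise the cause was not tested. Eomes rests on few counts, and its log2 fold change has the largest SE of the 9 genes (0.41).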
